A study of Mus musculus with 28 samples.

Results

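The receptor chains through which CD4+ T cells read interleukin-7, interleukin-2, interleukin-15, interleukin-4, interleukin-21 and interleukin-6 were followed in tumour-antigen-specific Th1 and Th17 cells before and after transfer into mice. The set was chosen by name, not by a threshold on measured values, but with earlier results of these data known. It holds 9 genes: Il7r, Il2ra, Il2rb, Il2rg, Il4ra, Il21r, Il15ra, Il6ra and Il6st. Of these, 8 were measured by a probe set that carries 1 gene symbol, among 19938 genes measured in all, and Il2rg is not analysed here. Expression was measured on 28 Affymetrix arrays, and every level below is a log2 value of the deposited table, so that a difference of 1 is a 2-fold change.

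The cells were CD4+ T cells from BwTRP1 Rag1-/- mice, which carry a transgenic T cell receptor for the melanocyte protein TRP1 and lack their own rearranged receptors. They were cultured for 7 days with irradiated C57/B6 splenocytes pulsed with TRP1 peptide, under Th1 conditions (IL-12 and antibody to IL-4) or Th17 conditions (IL-1, IL-6, IL-21 and TGFβ2 with antibodies to IL-2, IL-4 and IFN-γ). From 72 h both cultures received IL-2 and fresh polarising cytokines, and Th17 cultures also received IL-23. Both cultures therefore met agents that act on the receptors studied here: IL-6, IL-21 and an antibody to IL-2 in Th17 cultures only, and IL-2 and an antibody to IL-4 in both. The Thy1.2+ cells were transferred to B6.PL mice (Thy1.1+) irradiated with 5 Gy, a dose below the lethal one. At day 5 or day 15 spleens and inguinal lymph nodes were pooled, enriched for CD4 and sorted for Thy1.2. Each sample was split, and 1 part met antibodies to CD3 and CD28 for 2 h, which is called restimulation here. Day 0, before transfer, has 1 array per type and condition. Each condition has 3 Th1 and 3 Th17 arrays at day 5, and 2 Th1 and 4 Th17 arrays at day 15. The labels give no ages of the mice and do not tie replicates to different mice, so each p-value rests on the spread among these samples, which may be technical.

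As background, IL-7, IL-2, IL-15, IL-4 and IL-21 all signal through the common gamma chain (Il2rg), paired with a chain that sets which cytokine is bound. Il7r encodes the IL-7 receptor alpha chain, which supports the survival of naive and memory T cells and is known to be reduced on many effector cells. Il2ra (CD25) raises the affinity for IL-2 and is induced by T cell receptor signals, Il2rb (CD122) is the signalling chain shared by IL-2 and IL-15, and Il15ra presents or binds IL-15. Il4ra and Il21r are the private chains for IL-4 and IL-21, while Il6ra binds IL-6 and signals through Il6st (gp130), a pair outside the gamma chain family that takes part in Th17 differentiation. These chains pass signals to JAK kinases and STAT proteins, with Stat5a and Stat5b the main partners of the IL-2 and IL-7 receptors and Stat3 of the IL-6 and IL-21 receptors.

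Markers of T cells (7 measured, Cd3e, Cd4 and Thy1 among them) had mean levels between 12.26 and 12.55 on the arrays taken after transfer, and Thy1, the sorting marker, differed by 0.04 ± 0.08 (limma adjusted p = 0.922) between unstimulated Th17 and Th1 cells of day 5. Markers of other cells moved with some groups. The mean of 14 myeloid markers ran from 7.39 to 8.63 in unstimulated Th17 arrays at day 5, with replicate 1 the highest, against 6.58 to 6.85 in Th1 arrays, and 4 of the 14 (Lcn2, S100a8, Ngp and S100a9) were called higher, while Itgam (0.15), Csf1r (0.35) and Ly6g (0.48) were not. The mean of 5 natural killer (NK) cell markers ran from 6.51 to 6.98 in unstimulated Th1 arrays at day 15 against 5.74 to 5.79 in Th17 arrays, with 4 of the 5 lower in Th17 cells. The mean of 6 erythroid markers was 8.38 to 10.23 on all arrays of day 15 and 6.47 to 7.03 on all arrays of day 5. In such bulk samples a change in the share of cells that express a gene and a change in RNA per cell cannot be told apart.

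The chains Il6ra and Il7r set Th17 cells apart from Th1 cells most plainly. Il6ra was about 3-fold higher in Th17 cells at both days and in both conditions, and Il7r was over 2-fold higher in Th17 cells at day 5. Among unstimulated cells of day 5, 4 of the 8 receptors were called, all higher in Th17 cells (Il7r, Il6ra, Il2ra and Il4ra), where 3.63% of all genes were called. In restimulated cells of day 5 there were 3 calls, again higher in Th17 cells (Il7r, Il6ra and Il4ra), against 3.98% of all genes. At day 15 the calls were mixed: 4 of 8 in unstimulated cells (Il6ra and Il6st higher, Il2rb and Il15ra lower; 4.15% of all genes) and 2 of 8 in restimulated cells (Il6ra higher, Il2rb lower; 6.43% of all genes). A gene was called where its Benjamini-Hochberg adjusted p from limma, over all 19938 genes, was under 0.05. The mean levels of the 8 receptors lay between the 71.9 and the 99.5 percentile of all genes. The shares here and below count genes of every level, and the share among genes as bright as the receptors is not given.

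**Figure D1:**
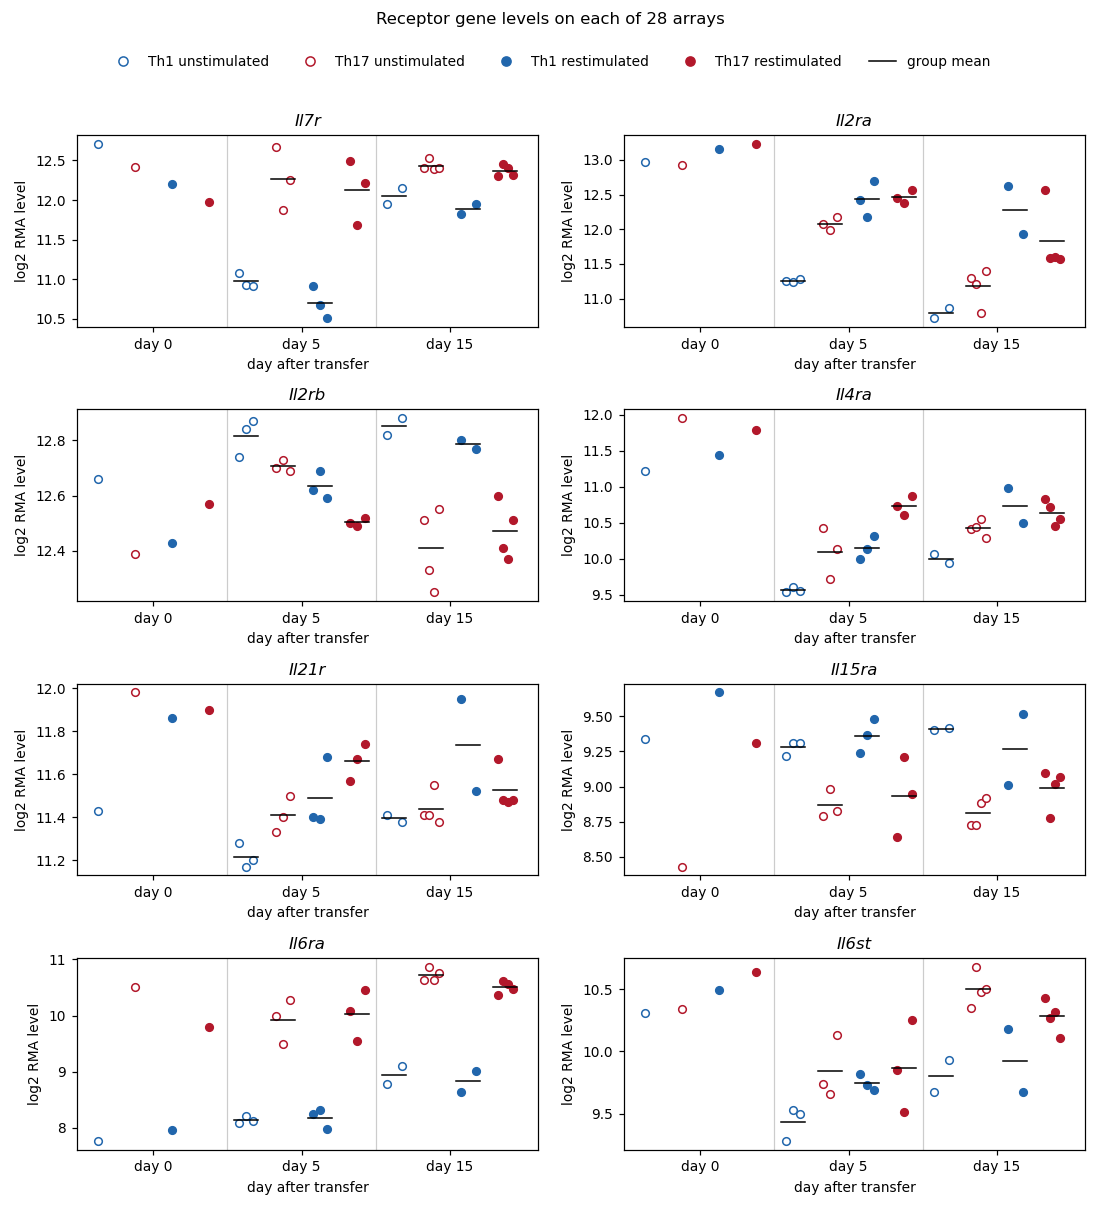
Log2 level of each measured receptor gene (vertical axis, a separate scale per panel) on each of the 28 arrays, by day after transfer (horizontal axis). Open points are unstimulated and filled points restimulated parts, blue is Th1 and red Th17, and bars are group means. Il6ra of every Th17 array lies above that of every Th1 array, and Il7r of the Th1 arrays is lowest at day 5.

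In unstimulated Th1 cells Il7r stood at 11.08, 10.93 and 10.91 at day 5 and at 11.95 and 12.15 at day 15. In unstimulated Th17 cells it stood at 12.67, 11.88 and 12.25 at day 5 and at 12.40, 12.53, 12.39 and 12.40 at day 15. The Th1 arrays of day 5 were thus below all others, and at either day the types did not overlap. The difference at day 5 was 1.29 ± 0.17 (SE; 2.45-fold; limma adjusted p = 1.66e-05), and at day 15 it was 0.38 ± 0.18 (adjusted p = 0.314), which is not called. Restimulated parts gave 10.92, 10.67 and 10.51 in Th1 and 12.49, 11.68 and 12.21 in Th17 cells at day 5, a difference of 1.42 ± 0.17 (2.68-fold; adjusted p = 4.29e-06). At day 15 they gave 11.82 and 11.95 against 12.30, 12.45, 12.40 and 12.32, again without overlap, a difference of 0.48 ± 0.18 (adjusted p = 0.129). With the array's myeloid marker mean as a covariate the day 5 differences were 0.86 (adjusted p = 0.00415) in unstimulated and 1.09 (adjusted p = 8.19e-05) in restimulated cells, and without Th17 replicate 1, the array with the highest myeloid mean, they were 1.09 and 1.24. With the NK marker mean as a covariate, an alternative chosen after seeing the data, the day 15 differences in Il7r were 1.10 (adjusted p = 0.026) and 0.99 (adjusted p = 0.00743), and with the myeloid mean they were 0.07 (adjusted p = 0.866) and 0.29 (adjusted p = 0.339), so the size at day 15 depends on the covariate.

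The group means of Il7r after transfer rose in the order 10.70 and 10.97 in Th1 cells of day 5 (restimulated, then unstimulated), 11.89 and 12.05 in Th1 cells of day 15, 12.13 and 12.27 in Th17 cells of day 5, and 12.37 and 12.43 in Th17 cells of day 15. The step from 10.97 to 11.89 was the widest between neighbours, and the 4 Th17 means lay within the largest SD of those groups (0.41). Before transfer the single arrays stood at 12.71 in Th1 and 12.42 in Th17 cells, so that Th17 cells were not the higher ones at day 0. From day 0 to the mean of day 5 the unstimulated level moved by -1.74 in Th1 and by -0.16 in Th17 cells, with no test, since day 0 has 1 array per group. From day 5 to day 15 it rose in Th1 cells by 1.08 ± 0.19 without restimulation (2.11-fold; adjusted p = 2.06e-04) and by 1.19 ± 0.19 with it (2.28-fold; adjusted p = 7.79e-05). In Th17 cells the same differences were 0.16 ± 0.16 (adjusted p = 0.525) and 0.24 ± 0.16 (adjusted p = 0.358). The test of the difference between the types in this course, the interaction of type and day, gave -0.91 ± 0.24 (95% interval -1.41 to -0.41; adjusted p = 0.0662) in unstimulated and -0.94 ± 0.24 (adjusted p = 0.0605) in restimulated cells, just past the threshold of 0.05. It was called without Th17 replicate 2 of day 5 (adjusted p = 0.0234 in unstimulated and 0.00576 in restimulated cells), and the highest adjusted p with 1 array left out was 0.405 and 0.19. With the myeloid mean as a covariate the interaction was -0.80 in both conditions (adjusted p = 0.0347 and 0.0425), and with the NK mean -0.10 (adjusted p = 1) and -0.34 (adjusted p = 0.802). The rise in Th1 cells came with higher NK markers at day 15 (3 of 5 called without and 2 of 5 with restimulation), and with the NK mean as a covariate it was 0.54 (adjusted p = 0.183) and 0.87 (adjusted p = 0.00251). It also came with the erythroid means of day 15, and with the erythroid mean as a covariate it was 0.69 (adjusted p = 0.645) and 0.87 (adjusted p = 0.469). That mean separates all arrays of the 2 days, so its part and that of day cannot be told apart.

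Il6ra had the widest span of the 8 receptors. Its group means after transfer ran from 8.14 in unstimulated Th1 cells of day 5 to 10.73 in unstimulated Th17 cells of day 15, a span of 2.58 (6.0-fold), where the median span of all genes was 0.38. Unstimulated Th1 arrays stood at 8.09, 8.21 and 8.12 at day 5 and at 8.77 and 9.10 at day 15. Unstimulated Th17 arrays stood at 10.00, 9.49 and 10.27 at day 5 and at 10.63, 10.87, 10.64 and 10.76 at day 15. No Th17 array fell within the range of the Th1 arrays, and the differences were 1.78 ± 0.18 at day 5 (3.43-fold; adjusted p = 6.64e-07) and 1.79 ± 0.19 at day 15 (3.46-fold; adjusted p = 1.49e-06). In restimulated cells they were 1.85 ± 0.18 (3.6-fold; adjusted p = 2.80e-07) and 1.68 ± 0.19 (3.2-fold; adjusted p = 3.83e-06). The same order was present at day 0, where Il6ra stood at 7.76 in Th1 and 10.51 in Th17 cells (7.95 and 9.80 after restimulation). Th17 arrays of day 0 also had the highest myeloid marker means (9.18 and 8.73, against 7.13 and 6.81 in Th1 arrays). After transfer, with the myeloid mean as a covariate, the Il6ra differences were 1.57, 1.69, 1.64 and 1.59 in the order given, all called.

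Il6ra also rose with time in both types. The difference between day 15 and day 5 was 0.80 ± 0.20 in unstimulated Th1 cells (adjusted p = 0.00749) and 0.81 ± 0.17 in unstimulated Th17 cells (adjusted p = 0.00319). It was 0.65 ± 0.20 in restimulated Th1 cells (adjusted p = 0.0312) and 0.48 ± 0.17 in restimulated Th17 cells, the latter not called (adjusted p = 0.0666). The type difference did not change detectably between the days, the interaction being 0.01 with a 95% interval from -0.54 to 0.56 in unstimulated cells. In unstimulated Th1 cells both arrays of day 15 (8.77 and 9.10) lay above those of day 5 (8.09, 8.21 and 8.12). Without the second array of day 15 the rise was 0.63 and the call was lost, in a fit with 1 array in that group. In restimulated Th1 cells the call was lost without replicate 1 or 3 of day 5 (adjusted p = 0.0522 and 0.131) or replicate 2 of day 15 (adjusted p = 0.309). In restimulated Th17 cells leaving out 1 array gave 0.24 (adjusted p = 0.422) to 0.69 (adjusted p = 0.016, without replicate 3 of day 5). With the NK mean as a covariate the rise in Th1 cells was 0.33 (adjusted p = 0.606) without and 0.37 (adjusted p = 0.365) with restimulation. With the erythroid mean as a covariate the adjusted p was 0.484 in unstimulated Th17 and 0.59 in restimulated Th1 cells. The erythroid mean separates the days, so its part and that of day cannot be told apart.

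Il6st, the signalling partner of Il6ra, stood at 9.28, 9.53 and 9.50 in unstimulated Th1 cells of day 5 and at 9.67 and 9.93 at day 15. In unstimulated Th17 cells it stood at 9.74, 9.66 and 10.13 at day 5 and at 10.35, 10.68, 10.48 and 10.50 at day 15. The 4 Th17 arrays of day 15 were above all other unstimulated arrays after transfer. Th17 cells were higher by 0.70 ± 0.17 at day 15 (1.63-fold; adjusted p = 0.0143), a call lost without either Th1 array (0.57 with adjusted p = 0.222, and 0.83 with adjusted p = 0.0588), and by 0.40 ± 0.16 at day 5 (adjusted p = 0.222). From day 5 to day 15 Il6st rose in unstimulated Th17 cells by 0.66 ± 0.15 (adjusted p = 0.00515), while in Th1 cells the difference was 0.36 ± 0.18 (adjusted p = 0.196). The Th17 call was lost with the erythroid mean, which separates the days, as a covariate (adjusted p = 0.623). The interaction of type and day was 0.30 ± 0.23 (adjusted p = 0.637), so the 2 courses of Il6st were not shown to differ. In restimulated cells no comparison of type or day was called for Il6st. Between the days in restimulated Th17 cells the difference was 0.41 ± 0.15 (adjusted p = 0.0674), from 0.23 (adjusted p = 0.384) to 0.60 (adjusted p = 0.0139, without replicate 3 of day 5) when 1 array was left out, and it was called among genes above the median (adjusted p = 0.0433) and after cyclic loess (0.52; adjusted p = 0.019). With the myeloid and the NK mean as covariates the unstimulated difference between types at day 15 was 0.71 (adjusted p = 0.051) and 0.78 (adjusted p = 0.357).

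Among the 24 arrays after transfer, arrays with high Il7r also had high Il6ra (Pearson's r 0.90, and 0.69 over all 28), a description of arrays that share groups and processing. The promoters of both genes are shown because these 2 chains carry the largest type differences. Each is a window of 300 bases around the start site given in a set of annotated promoters (GRCm38.p6). Il7r lies at chr15:9529827-9530126 and Il6ra at chr3:89913147-89913446, both on the minus strand, and capitals mark a match to one of the 4 motifs searched on both strands.
Il7r: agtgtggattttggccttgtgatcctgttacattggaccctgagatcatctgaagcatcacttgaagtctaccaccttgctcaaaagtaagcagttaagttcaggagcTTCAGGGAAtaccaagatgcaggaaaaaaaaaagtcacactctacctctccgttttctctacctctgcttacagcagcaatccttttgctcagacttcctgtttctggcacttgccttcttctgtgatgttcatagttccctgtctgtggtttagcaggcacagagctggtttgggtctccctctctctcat
Il6ra: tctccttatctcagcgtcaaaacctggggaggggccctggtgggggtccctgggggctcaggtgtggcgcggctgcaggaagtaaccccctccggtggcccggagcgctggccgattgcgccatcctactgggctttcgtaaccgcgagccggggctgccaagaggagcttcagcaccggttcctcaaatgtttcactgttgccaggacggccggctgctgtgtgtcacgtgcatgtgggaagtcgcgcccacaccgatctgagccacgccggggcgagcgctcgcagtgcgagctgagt
The motifs were a STAT-type palindrome (TTCNNNGAA), an AP-1 motif (TGANTCA), a forkhead motif (GTAAACA) and an ETS motif (CCGGAAG). They are held by 8.3%, 7.81%, 3.65% and 8.86% of the 32851 promoters of that set. The Il7r window held 1 match, a STAT-type one that begins at position -142 from the start site of that set. The Il6ra window held none. The RefSeq gene of Il7r begins upstream of that site, at 9529941, so a position counted from the gene would differ. A match is only a match of letters in this window.

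**Figure D2:**
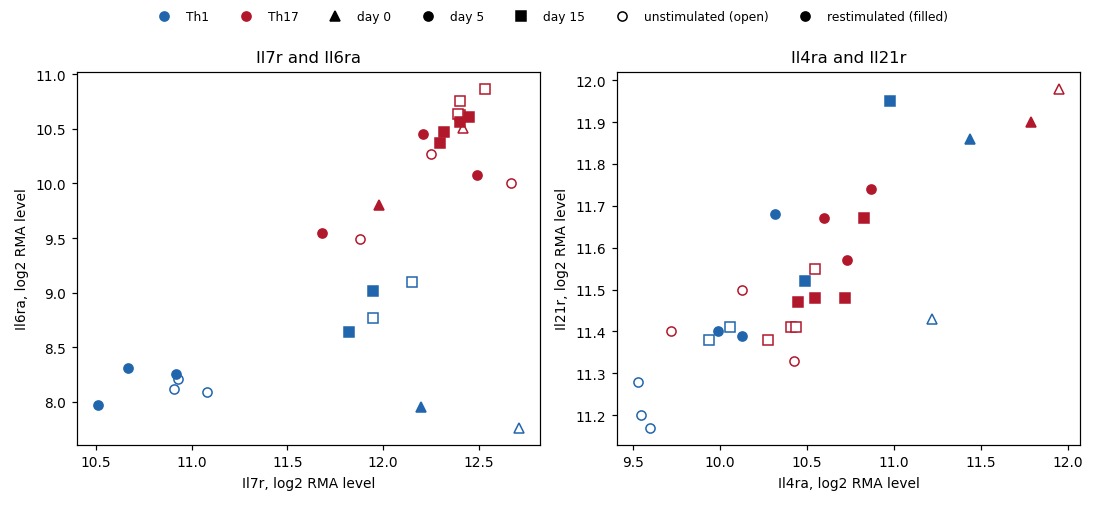
Log2 level of Il7r against Il6ra (left) and of Il4ra against Il21r (right), 1 point per array over all 28 arrays. Colour gives the type, shape the day and filling the condition. At left the Th1 arrays of day 5 lie lowest on both axes after transfer, while Th1 arrays of day 0 pair a high Il7r level with a low Il6ra level.

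The chains of the IL-2 and IL-15 receptors differed between the types in other ways. Il2ra of unstimulated Th17 cells at day 5 stood at 12.08, 11.99 and 12.17, above the 11.26, 11.24 and 11.28 of Th1 cells, a difference of 0.82 ± 0.21 (1.76-fold; adjusted p = 0.0243). The size held but the call did not: leaving out any one of the 6 arrays gave 0.77 to 0.87, with an adjusted p from 0.0409 (without Th17 replicate 2) to 0.104 (without Th17 replicate 3), and only the first of these was called. With the myeloid mean as a covariate it was 0.85 (adjusted p = 0.183). At day 15 Il2ra stood at 10.72 and 10.87 in Th1 and at 11.30, 11.21, 10.80 and 11.40 in Th17 cells, where the ranges overlapped and the difference was 0.38 ± 0.22 (adjusted p = 0.457). In restimulated cells of day 15 it was -0.44 ± 0.22 (adjusted p = 0.317), which became -0.69 (adjusted p = 0.0119) without Th17 replicate 1 and -0.10 (adjusted p = 0.891) without Th1 replicate 1. The level fell with time in Th17 cells by 0.90 ± 0.19 without restimulation (adjusted p = 0.00378) and was lower by 0.46 ± 0.23 in Th1 cells, the latter not called (adjusted p = 0.212). In restimulated Th17 cells the difference between the days was -0.63 ± 0.19 (adjusted p = 0.0308), with overlapping ranges, and the call was lost without any one of the arrays except Th17 replicate 1 of day 15 (adjusted p from 0.0539 to 0.123). Without that array it was -0.88 (adjusted p = 4.71e-04). With the erythroid mean, which separates the days, as a covariate the Th17 differences had an adjusted p of 0.221 without and 0.268 with restimulation. All 4 arrays of day 0 had more Il2ra (12.92 to 13.23) than any array after transfer.

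Il2rb varied little, its 8 group means spanning 0.44, and its type comparisons were called at day 15 only. Unstimulated Th1 arrays of day 15 stood at 12.82 and 12.88 and Th17 arrays at 12.51, 12.33, 12.25 and 12.55, without overlap. Th17 cells were lower by 0.44 ± 0.09 (1.36-fold; adjusted p = 0.00399), a call lost without Th1 replicate 2 (-0.41; adjusted p = 0.107). Restimulated parts gave 12.80 and 12.77 against 12.60, 12.41, 12.37 and 12.51, lower in Th17 cells by 0.31 ± 0.09 (1.24-fold; adjusted p = 0.0399), called only without Th17 replicate 1 when 1 array was left out (adjusted p from 0.0188 to 0.214). On these restimulated arrays 5 of 6 erythroid markers were called lower in Th17 cells, and with the erythroid mean as a covariate the Il2rb difference was -0.20 (adjusted p = 0.391). At day 5 the types did not overlap either, with differences of -0.11 ± 0.09 in unstimulated (adjusted p = 0.721) and -0.13 ± 0.09 in restimulated cells (adjusted p = 0.679). The interaction of type and day for Il2rb was -0.34 ± 0.12 without restimulation (adjusted p = 0.228) and -0.18 ± 0.12 with it (adjusted p = 0.701). The separation was thus not shown to be particular to day 15. Il2rb fell in unstimulated Th17 cells between the days by 0.30 ± 0.08 (adjusted p = 0.0186), a call lost without Th17 replicate 1 or 2 of day 5 or replicate 2 or 3 of day 15 (adjusted p from 0.0611 to 0.0672). It was also lost with the erythroid mean, which separates the days, as a covariate (adjusted p = 0.243). The NK cell marker mean was also higher on unstimulated Th1 arrays of day 15 (6.51 to 6.98) than on the Th17 arrays (5.74 to 5.79). With that mean as a covariate the day 15 difference in Il2rb between unstimulated types was -0.42 (adjusted p = 0.382), close in size and not called. Fitted on only the groups compared, that difference had an adjusted p of 0.0889.

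All 4 group means of Il15ra in Th17 cells after transfer (8.81 to 8.99) were below the 4 of Th1 cells (9.27 to 9.41), and 1 of the 4 type comparisons was called. Unstimulated Th1 arrays stood at 9.22, 9.31 and 9.31 at day 5 and at 9.40 and 9.42 at day 15. Unstimulated Th17 arrays stood at 8.79, 8.98 and 8.83 at day 5 and at 8.73, 8.73, 8.88 and 8.92 at day 15. The types did not overlap at either day, and the difference was -0.41 ± 0.13 at day 5 (adjusted p = 0.0893) and -0.59 ± 0.14 at day 15 (1.51-fold; adjusted p = 0.0119). The latter call was lost without either Th1 array (adjusted p = 0.0945 and 0.163), with the myeloid covariate (-0.44; adjusted p = 0.122) and with the NK covariate (-0.72; adjusted p = 0.22). The day 5 difference of Il15ra ran from called with array weights (-0.41; adjusted p = 0.0042) to -0.20 (adjusted p = 0.857) with the myeloid mean, which is high on these Th17 arrays, as a covariate. In restimulated cells of day 5 the difference was -0.43 ± 0.13 (adjusted p = 0.0644), and it was called with the replicate number as a block (adjusted p = 0.0468) and without Th17 replicate 2 (-0.57; adjusted p = 0.0108). It was -0.29 (adjusted p = 0.431) without Th17 replicate 1 and -0.27 (adjusted p = 0.623) with the myeloid covariate. At day 0 Il15ra stood at 9.34 in Th1 and 8.43 in Th17 cells without restimulation. Il15, the ligand, was also lower in Th17 cells at day 15, by 0.64 ± 0.11 without restimulation (adjusted p = 5.97e-04). Th1 arrays stood at 6.07 and 6.10 and Th17 arrays between 5.22 and 5.64, all below the array medians (6.77 to 7.09). The NK marker mean was higher on these Th1 arrays (6.51 to 6.98 against 5.74 to 5.79). So was that of dendritic and MHC class II markers (7.46 to 7.58 against 7.14 to 7.22). The part of these cells in the Il15 difference was not tested.

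Il4ra, the IL-4 binding chain, was called higher in Th17 cells at day 5. Unstimulated Th1 arrays stood at 9.53, 9.60 and 9.55 and Th17 arrays at 10.43, 9.72 and 10.13, without overlap, a difference of 0.53 ± 0.15 (1.45-fold; adjusted p = 0.0427). Restimulated parts gave 9.99, 10.13 and 10.32 against 10.73, 10.60 and 10.87, a difference of 0.59 ± 0.15 (1.5-fold; adjusted p = 0.0194). In unstimulated cells the call was lost without any one of the arrays except Th17 replicate 2, and without Th17 replicate 1, the array with the most myeloid signal, the difference in Il4ra was 0.36 (adjusted p = 0.304). With the myeloid mean as a covariate it was 0.38 (adjusted p = 0.58) in unstimulated and 0.47 (adjusted p = 0.248) in restimulated cells. The restimulated call was lost without Th1 replicate 1 or 2 or Th17 replicate 1 or 3 (adjusted p from 0.0629 to 0.127). At day 15 the difference was 0.42 ± 0.16 (adjusted p = 0.161) without and -0.10 ± 0.16 (adjusted p = 0.845) with restimulation. Unstimulated arrays of day 15 did not overlap either, at 9.94 to 10.06 in Th1 and 10.28 to 10.55 in Th17 cells. The interaction of type and day for Il4ra was -0.11 ± 0.21 (adjusted p = 0.877) in unstimulated and -0.68 ± 0.21 (adjusted p = 0.148) in restimulated cells. In restimulated Th1 cells Il4ra rose between the days by 0.59 ± 0.16 (adjusted p = 0.0151), a call lost without replicate 1 of day 5 (adjusted p = 0.068) or replicate 1 of day 15 (0.34). It was also lost with the erythroid mean, which separates the days, as a covariate (adjusted p = 0.706). In unstimulated Th17 cells the difference between the days was 0.32 ± 0.14 (adjusted p = 0.14), called without replicate 1 of day 5 (0.49; adjusted p = 0.0381) and down to 0.14 (adjusted p = 0.576) without replicate 2 of day 5.

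Il21r, the private chain for IL-21, was the only measured receptor with no call in any of the 12 pairwise comparisons. Its group means after transfer ran from 11.22 in unstimulated Th1 cells of day 5 to 11.74 in restimulated Th1 cells of day 15, a span of 0.52. The lowest values were the 3 unstimulated Th1 arrays of day 5 (11.28, 11.17 and 11.20), below the 3 Th17 arrays (11.33, 11.40 and 11.50), a difference of 0.19 ± 0.10 (adjusted p = 0.474). Without replicate 2 of restimulated Th1 cells at day 15, Il21r was lower in Th17 cells by 0.42 (adjusted p = 0.0252), and it was called higher on restimulation (0.56; adjusted p = 0.0077) and at day 15 than at day 5 (0.46; adjusted p = 0.0195) in Th1 cells. Without replicate 1, the only other array of that group, these Il21r differences were 0.00 (adjusted p = 0.994), 0.13 (adjusted p = 0.699) and 0.03 (adjusted p = 0.917).

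Il4ra and Il21r are neighbours on chromosome 7, 23.8 kb apart with 0 annotated genes between them in GRCm38.p6, and Il2ra and Il15ra are neighbours on chromosome 2, 12 kb apart with 0 protein-coding genes between them. Over the 28 arrays Pearson's r was 0.84 for Il4ra with Il21r and 0.07 for Il2ra with Il15ra, again as a description. The promoters of the first pair, both on the plus strand, at chr7:125552021-125552320 for Il4ra and chr7:125603179-125603478 for Il21r, are shown for that reason, with capitals as above.
Il4ra: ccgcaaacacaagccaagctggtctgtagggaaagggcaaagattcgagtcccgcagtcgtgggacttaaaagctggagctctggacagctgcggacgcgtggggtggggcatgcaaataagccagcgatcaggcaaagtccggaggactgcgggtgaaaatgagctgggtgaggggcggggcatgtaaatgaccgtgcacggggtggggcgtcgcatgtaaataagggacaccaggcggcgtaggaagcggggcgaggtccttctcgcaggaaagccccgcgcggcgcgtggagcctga
Il21r: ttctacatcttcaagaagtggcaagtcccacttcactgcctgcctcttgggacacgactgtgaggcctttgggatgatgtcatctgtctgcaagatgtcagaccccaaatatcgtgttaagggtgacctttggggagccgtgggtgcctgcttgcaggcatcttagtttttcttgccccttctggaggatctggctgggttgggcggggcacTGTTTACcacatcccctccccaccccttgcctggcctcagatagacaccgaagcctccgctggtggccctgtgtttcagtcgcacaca
The Il4ra window held no match to the 4 motifs. The Il21r window held 1, a forkhead match read on the opposite strand (TGTTTAC), which begins at position -38 from the start site of that promoter. The RefSeq gene of Il21r begins upstream of this site, at 125603252, so the match lies within the gene. The Il2ra and Il6st windows held none, and of the 2 annotated Il15ra promoters the first held an ETS and the second an AP-1 match.

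**Figure D3:**
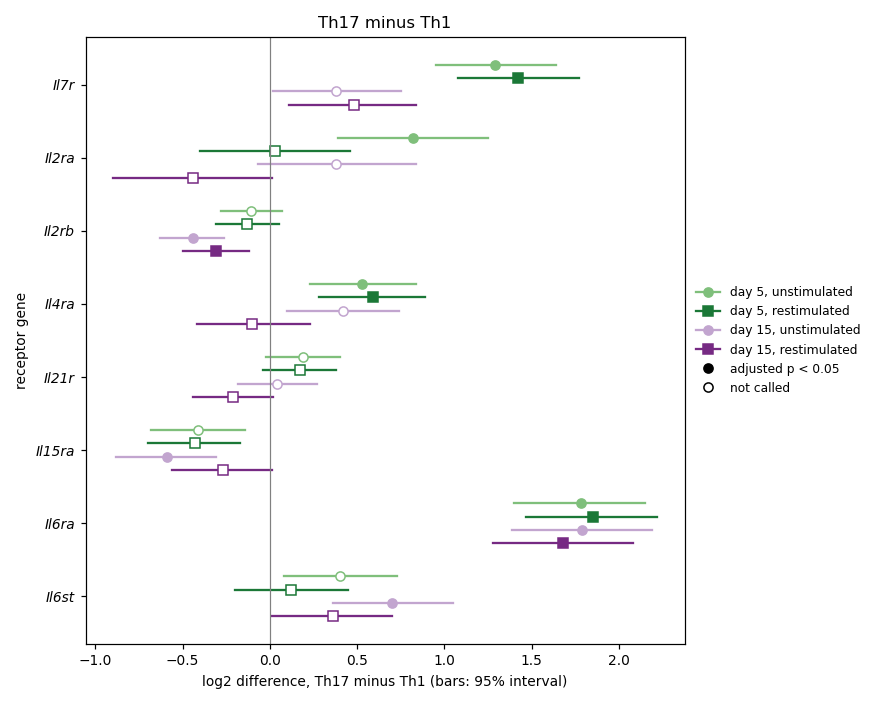
Log2 difference between Th17 and Th1 cells (horizontal axis) for each measured receptor (vertical axis), with 95% intervals from limma. Colours give day and condition, and filled points have an adjusted p under 0.05. Il6ra lies between 1.68 and 1.85 in all 4 comparisons, and Il7r is at 1.29 and 1.42 at day 5 but at 0.38 and 0.48 at day 15.

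Restimulation through CD3 and CD28 raised Il2ra and Il4ra, and no receptor was called lower. Il2ra went from 11.26, 11.24 and 11.28 to 12.42, 12.18 and 12.70 in Th1 cells of day 5, with no overlap, a rise of 1.17 ± 0.21 (2.25-fold; adjusted p = 6.07e-04). Il4ra rose in the same cells by 0.58 ± 0.15 (1.5-fold; adjusted p = 0.00966), so that 2 of 8 receptors were called, where 13% of all genes were. In Th17 cells of day 5, 1 of 8 was called (8.07% of all genes), Il4ra, which rose by 0.64 ± 0.15 (1.56-fold; adjusted p = 0.00848). Il2ra of these cells went from 12.08, 11.99 and 12.17 to 12.45, 12.38 and 12.56, higher in 3 of 3 samples by 0.37 to 0.39, a difference of 0.38 ± 0.21 that was not called (adjusted p = 0.3) in the unpaired main fit. The same difference was called with the replicate number as a block (adjusted p = 0.0154) and when only the groups compared were fitted (adjusted p = 0.0401). The 4 type and condition means of Il2ra at day 5 thus met at 12.43 and 12.46 after restimulation, where Th17 and Th1 cells differed by 0.03 (95% interval -0.40 to 0.46).

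At day 15, 2 of 8 receptors rose on restimulation in Th1 cells (7.29% of all genes called) and 1 of 8 in Th17 cells (17.5% of all genes called). Il2ra of Th1 cells went from 10.72 and 10.87 to 12.62 and 11.93, a rise of 1.47 ± 0.25 (2.78-fold; adjusted p = 0.0013), and Il4ra from 10.06 and 9.94 to 10.98 and 10.49, a rise of 0.73 ± 0.18 (1.66-fold; adjusted p = 0.0154). Il2ra of Th17 cells went from 11.30, 11.21, 10.80 and 11.40 to 12.56, 11.59, 11.60 and 11.57, a rise of 0.65 ± 0.18 (1.57-fold; adjusted p = 0.0136). Replicate 1 of the restimulated Th17 cells stood well above the other 3, and without it the Il2ra difference was 0.41 (adjusted p = 0.06). On these arrays 6 of 6 erythroid markers were called lower after restimulation, and with the erythroid mean as a covariate the rise in Il2ra was 0.99 (adjusted p = 0.135). The same array had the highest level of Il2, the gene for the ligand, at 11.89 against 8.32, 9.59 and 8.43. Il4ra of Th17 cells at day 15 differed by 0.22 ± 0.13 (adjusted p = 0.244), with overlapping ranges.

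The size of the Il2ra response was smaller in Th17 than in Th1 cells at both days, by 0.79 (95% interval 0.18 to 1.40) at day 5 and by 0.82 (0.18 to 1.47) at day 15, but neither interaction passed the adjustment over all genes (adjusted p = 1 and 0.76). At day 15 the difference in response was -0.48 without replicate 1 and -1.17 without replicate 2 of restimulated Th1 cells. Il21r was higher after restimulation in 3 of 3 Th1 and 3 of 3 Th17 samples of day 5, and over both days had differences from 0.09 to 0.34 and adjusted p from 0.0869 to 0.513. Il7r was lower in 3 of 3 samples of either type at day 5, and over both days had differences from -0.27 to -0.06 and adjusted p from 0.357 to 0.793. At day 0 the single arrays of Il7r were likewise lower after restimulation, by 0.51 in Th1 and 0.45 in Th17 cells. With the replicate number as a block, which pairs same-numbered parts, 5 of 8 receptors were called in Th1 cells of day 5. The block added Il7r (-0.27, adjusted p = 0.03), Il6st (0.31, adjusted p = 0.0306) and Il21r (0.27, adjusted p = 0.0459). The share of all genes called with the block is not given here. In Th17 cells of day 5 the block called 2, adding Il2ra (adjusted p = 0.0154). The Il4ra calls were lost without replicate 3 of restimulated Th1 cells at day 5 (0.50; adjusted p = 0.0688), without replicate 2 of unstimulated Th17 cells at day 5 (0.45; adjusted p = 0.0579), and at day 15 without either unstimulated Th1 array (adjusted p = 0.0705 and 0.121) or restimulated Th1 replicate 1 (0.49; adjusted p = 0.206). The Il2ra call in Th17 cells of day 15 was also lost without unstimulated replicate 3 (adjusted p = 0.0534). Fitted on only the groups compared, the rise of Il2ra at day 15 had an adjusted p of 0.0801 in Th1 and 0.0577 in Th17 cells.

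**Figure D4:**
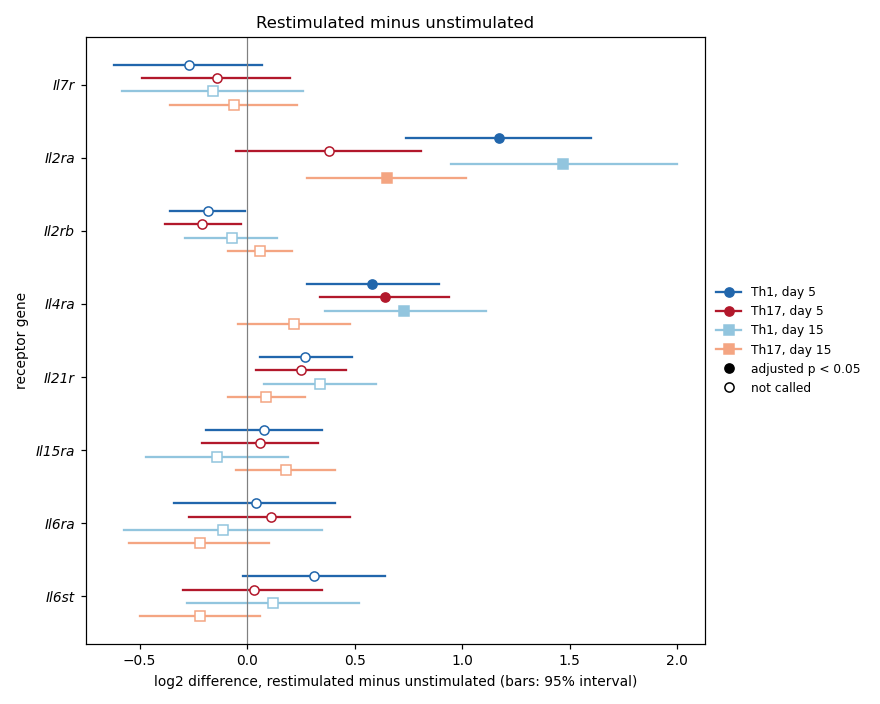
Log2 difference between restimulated and unstimulated parts (horizontal axis) for each measured receptor (vertical axis), with 95% intervals from limma. Blue and light blue are Th1 cells, red and orange Th17 cells, circles are day 5 and squares day 15, and filled points have an adjusted p under 0.05. Il2ra lies at 1.17 and 1.47 in Th1 cells against 0.38 and 0.65 in Th17 cells.

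Counted over time, 2 of 8 receptors rose from day 5 to day 15 in unstimulated Th1 cells (Il7r and Il6ra; 16.1% of all genes called) and 3 of 8 in restimulated Th1 cells (Il7r, Il6ra and Il4ra; 15.7%). In unstimulated Th17 cells 2 rose (Il6ra and Il6st) and 2 fell (Il2ra and Il2rb), where 9.64% of all genes were called. In restimulated Th17 cells Il2ra alone was called, lower at day 15 (13.5% of all genes). The median difference of the 8 receptors was 0.27, 0.21, 0.10 and 0.02 in the order of these 4 comparisons, beside 0.00, -0.00, 0.05 and -0.05 over all genes. With the erythroid mean as a covariate 0 receptors were called in all 4, and the share of all genes called in those fits is not given here.

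No receptor was called in any of the 6 interactions, 0 of 8 each by limma. Without replicate 2 of restimulated Th1 cells at day 15, Il4ra (-0.93; adjusted p = 0.033) and Il21r (-0.59; adjusted p = 0.0367) were called for type with day in restimulated cells, and without replicate 1 they were -0.44 (adjusted p = 0.451) and -0.17 (adjusted p = 0.708). For type with day the unadjusted p was under 0.05 for 2 receptors in unstimulated and 3 in restimulated cells, and for 2505 and 2125 of the 19938 genes, with 1.14% and 0.943% of all genes called. For type with restimulation it was 1 receptor and 490 genes at day 5, and 2 receptors and 1216 genes at day 15, with 0.0201% and 0% of all genes called. For day with restimulation it was 0 receptors and 843 genes in Th1 cells, and 2 receptors and 3160 genes in Th17 cells, with 0.0251% and 1.17% of all genes called.

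The other genes of these pathways were counted by list. In unstimulated cells 3.63% of all genes were called between the types at day 5 and 4.15% at day 15. Of 19 further receptor chains of the gamma chain, gp130, IL-12, interferon, TGF-β and IL-1 families, 5 were higher and 1 lower in unstimulated Th17 cells of day 5: Il23r (3.28), a chain of the IL-23 receptor, and Ifngr2 (2.63), a chain of the interferon-γ receptor, were followed by Il18r1 (0.69) and Il13ra1 (0.60), while Il10ra was lower by 0.95. At day 15 Il23r (1.22) and Ifngr2 (2.29) were higher and Il10ra (-1.64), Il12rb2 (-0.96) and Il18rap (-0.89) lower. The last pair was lost without single arrays, both without Th1 replicate 1 (adjusted p up to 0.271 for Il12rb2 and 0.0746 for Il18rap). None of the 9 measured kinases and STATs was called between the types in unstimulated cells of day 5. Of 12 feedback genes, 2 were higher there, Socs2 (1.03) and Socs3 (0.75), both suppressors of cytokine signalling. Of 15 targets of gamma chain signals, 1 was, the survival gene Bcl2 (1.05; adjusted p = 6.40e-06), which stood at 10.90, 11.01 and 11.04 in Th1 and at 12.06, 11.80 and 12.21 in Th17 cells. Of 13 known regulators of Il7r, 2 were higher, Id3 (0.99) and Foxo1 (0.44). The calls of Il13ra1, Socs3 and Foxo1 were lost when single arrays were left out (adjusted p up to 0.299, 0.111 and 0.104), and those of Il23r, Ifngr2, Il10ra, Il18r1, Socs2, Bcl2 and Id3 at day 5 held without each of the 6 arrays.

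Restimulation raised ligand genes. In Th1 cells of day 5, 4 of 8 ligands were called higher: Il2 (5.53), Il4 (3.38), Il21 (1.74) and Il6 (1.38), and in Th17 cells 2, Il2 (4.71) and Il21 (1.86), where 13% and 8.07% of all genes were called. The Il21 call held without 1 of the 6 arrays in Th1 and without 0 of 6 in Th17 cells (adjusted p up to 0.154 and 0.201 when 1 was left out). In Th17 cells of day 15 Il2 rose by 2.78 (adjusted p = 2.79e-04), and Il9 (-0.26; adjusted p = 0.0465) was called lower. After restimulation at day 15, 5 of 8 ligands were lower in Th17 than in Th1 cells: Il4 (-2.52), Il21 (-2.50), Il2 (-2.13), Il6 (-1.42) and Il15 (-0.77), where 6.43% of all genes were called. Without restimulated Th1 replicate 1 all of these but Il15 were lost (adjusted p from 0.189 to 0.367), and that of Il2 was also lost without Th17 replicate 2, 3 or 4. Of 15 targets, 5 rose and 2 fell in Th1 cells of day 5, Bcl6 (1.63), Myc (1.27), Bcl2l1 (1.06) and Bcl2l11 (1.02) among the former, and Stat5a rose by 0.86 in Th1 and 0.85 in Th17 cells. Klf2, a transcription factor of resting T cells on the list of Il7r regulators, fell by 1.01 in Th1 cells of day 5 (adjusted p = 8.07e-04).

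Between day 5 and day 15 unstimulated Th1 cells showed 7 of 19 further receptor chains higher and none lower, where 16.1% of all genes were called, led by Il18rap (0.91), Il23r (0.79), Il18r1 (0.72) and Tgfbr1 (0.61). The calls of Il23r and Tgfbr1 were each lost without 1 array (adjusted p = 0.226 and 0.0504). Il15 rose by 0.91, Socs2 by 1.51 and Bcl2 by 0.90, and each call held without any one of the 5 arrays. In Th17 cells 1 chain rose and 3 fell, where 9.64% of all genes were called, with Il23r lower by 1.27 (adjusted p = 7.26e-06). In both types Gfi1b, a repressor on the list of Il7r regulators that is also an erythroid gene, rose (2.52 in Th1 and 2.19 in Th17 cells), on the arrays where the erythroid mean was high, and the part of that mean was not tested.

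The genes whose levels ran most like a receptor over the 28 arrays were ranked by Pearson's r among genes above the median mean level, as a description only, since the arrays share groups and processing. For Il7r they were Slc49a4 (0.91), Fam102b (0.90), Socs2 (0.89), Arrb1 (0.89) and Pik3ip1 (0.89). For Il2ra they were Mapkapk2 (0.94), Fes (0.92), Rnf157 (0.91), Myc (0.89) and Map3k8 (0.89). For Il2rb they were Ddx28 (0.87), Rhoc (0.83), Lrp10 (0.82), Il10ra (0.80) and Lrrk1 (0.80). For Il6ra they were Pcsk1 (0.95), Arhgef11 (0.94), Arhgap31 (0.94), Ggt5 (0.94) and Fam124b (0.93). Over the 12 group means the leading genes were Fam102b (0.94) for Il7r, Mapkapk2 (0.95) for Il2ra, Ddx28 (0.87) for Il2rb and Arhgap31 (0.96) for Il6ra.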

How the data were processed

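Total RNA was hybridised to 28 Affymetrix arrays after being labelled with the Ambion WT Expression kit, per the labels. The authors deposited log2 values made by RMA in Affymetrix Expression Console, per the submitters' processing notes, with no version named. RMA corrects background, equalises array distributions and summarises probes, so a difference shared by most genes would be removed. The labels do not say whether all arrays went through RMA as 1 set. Array medians lay between 6.77 and 7.09. Precision is set by how many arrays each group has.

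Of 35556 probe sets, 21789 carried 1 gene symbol in the platform annotation, 1621 several and 12146 none. The first kind was used, taking the probe set with the highest mean per gene, which left 19938 genes. Each measured receptor had 1 such probe set. A linear model with 1 mean per group was fitted to the 24 arrays after transfer (8 groups, 16 residual degrees of freedom) with limma 3.58.1 (lmFit, eBayes) in R 4.3.3. The 12 pairwise comparisons and 6 interactions were adjusted over all genes by the method of Benjamini and Hochberg, with 0.05 as the threshold. Comparisons that share a group of arrays are not independent. Day 0, with 1 array per group, is given as values. The script was tested on simulated data.

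The 9 receptors were named whatever their change. Pathway genes were named where called, up to 5 per list and comparison, or as the ligand or partner of a receptor. The receptors and lists were chosen with earlier results of these data known. To see whether numbers pair arrays, deviations from group means were correlated between same-numbered arrays. Only comparisons with at least 3 shared numbers were taken as paired. Of these, every pair correlated above 0.1 for restimulation at day 5 (0.16 to 0.21 in Th1 and 0.39 to 0.48 in Th17 cells). The same held for restimulated Th17 against Th1 cells of day 5 (0.21 to 0.48). Blocked values stand beside those results where they change a call. With 2 shared numbers, pairs of Th1 arrays also passed 0.1 for restimulation at day 15 (0.12). Between the days they gave 0.21 to 0.29 without and 0.38 to 0.65 with restimulation. Types and days are different samples, so the check does not identify split samples. Alternatives covered the arrays fitted, filter, normalisation, probe sets, prior, array weights, block, single arrays left out and marker means as covariates.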

Additional observations from a re-analysis of the deposited data

Results flagged for a closer look

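Each of the 8 measured receptors was examined in the unstimulated and in the restimulated Th17 cells of day 15, giving 16 sets of 4 values. In 3 sets 1 array was farther from the others than Dixon's critical value allows, where chance gives about 1 in 20 sets. The sets share arrays and are not independent. Il7r in unstimulated Th17 cells of day 15 was highest in replicate 2, at 12.53 against 12.39 to 12.40 in the other three. Il2ra in restimulated Th17 cells of day 15 was highest in replicate 1, at 12.56 against 11.57 to 11.60. Il21r in the same cells was highest in that replicate too, at 11.67 against 11.47 to 11.48. This array also had the highest Il21 (10.48 against 7.19, 8.52 and 7.95) and Cish (12.34 against 11.83 to 11.86) of its group.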

How the results depend on the processing

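In the 3048 recomputed receptor differences, 0 turned a call around, 112 lost a call and 67 gained one, and of 381 recomputed counts of called receptors 76 moved by over 1.5 times. The calls of Il6ra and of Il7r at day 5 between the types held under every alternative run. Leaving out 1 array gave 2 to 4 receptors for Th17 against Th1 cells at day 5 in either condition, 1 to 4 at day 15 without restimulation and 1 to 3 with it. For restimulation it gave 1 to 2 in Th1 and 0 to 1 in Th17 cells at day 5, and 1 to 3 and 0 to 1 at day 15. For day 15 against day 5 it gave 1 to 2 and 1 to 3 in Th1 cells without and with restimulation, and 0 to 2 in restimulated Th17 cells. For the interaction of type and day it gave 0 to 1 without and 0 to 2 with restimulation.

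For Th17 against Th1 cells at day 5 without restimulation, leaving out both parts of Th17 sample 1 and the myeloid or erythroid mean as a covariate gave 2 each. At day 15 without restimulation the replicate block gave 7, and the myeloid and NK means 2 each. At day 15 with restimulation only the groups compared, centring on array medians, array weights, the block, and the myeloid or erythroid mean gave 1 each. For restimulation in Th1 cells of day 5, array weights gave 4, the block 5 and the B cell mean 1. In Th17 cells of day 5, only the groups compared and the block gave 2 each. In Th1 cells of day 15, only the groups compared and the block gave 0, and array weights and the erythroid mean 1. In Th17 cells of day 15, only the groups compared and the erythroid mean gave 0. For the days in unstimulated Th1 cells, only the groups compared and the block gave 5, array weights 4, and the erythroid and NK means 0. In restimulated Th1 cells, only the groups compared, array weights and the NK mean gave 1 and the erythroid mean 0. In unstimulated Th17 cells the erythroid mean gave 0. In restimulated Th17 cells, only the groups compared, the prior with trend, the block and the erythroid mean gave 0, genes above the median 3, and cyclic loess, the myeloid mean and the NK mean 2. For the interaction of type and day, genes above the median and the myeloid mean gave 1 in both conditions, and in unstimulated cells only the groups compared and array weights also gave 1, each time Il7r. The cause of these moves was not tested. The share of all genes called may differ between the alternatives and is not given here, so these counts are not a result about the receptors alone. Each sample was split, so same-numbered unstimulated and restimulated arrays of day 15 may also be parts of 1 sample, which the labels do not state. The main fit left all comparisons unpaired. In comparisons of types or days the samples share only a number.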
